A study of Homo sapiens with 12 samples.

Results

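Oxidative phosphorylation subunits are the proteins of the 4 respiratory chain complexes (I to IV) and of ATP synthase (complex V). They were chosen by gene symbol: symbols that begin with NDUFA, NDUFB, NDUFC, NDUFS, NDUFV, UQCR, ATP5, COX4 to COX8 (followed by any letter or number), SDHA to SDHD and CYC1 for the nuclear genome, and MT-ND, MT-CO, MT-CY and MT-ATP for the mitochondrial genome, without assembly factors and pseudogenes. Of 36459 gene symbols in the series, 104 matched and 96 had at least 10 estimated counts in 3 or more libraries. The 96 members comprised 83 nuclear and 13 mitochondrially encoded genes, and all 96 entered the test. By complex, nuclear and mitochondrial members numbered 38 and 7 for complex I, 4 and 0 for complex II, 9 and 1 for complex III, 13 and 3 for complex IV, and 19 and 2 for complex V. NDUFA4 and its paralog NDUFA4L2 were placed with complex IV, where NDUFA4 is known to sit. Among the 96 were 2 readthrough genes, NDUFC2-KCTD14 and ATP5MF-PTCD1, which share exons with NDUFC2 and ATP5MF, so that their values rest on how reads were divided between them. A further 160 symbols that carried a pseudogene suffix were left out.

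The respiratory chain passes electrons from NADH and succinate to oxygen, and complexes I, III and IV pump protons across the inner mitochondrial membrane while they do so. ATP synthase lets the protons return and makes ATP from ADP and phosphate. Every complex except complex II mixes subunits made in the cytosol from nuclear genes with subunits made inside the mitochondrion from its own DNA, and the chain carries its electrons on iron-sulfur clusters, hemes, flavins and copper.

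Messenger RNA was sequenced after poly-A selection in HEK293, an established line of human embryonic kidney cells. The 4 groups, with 3 libraries each, were cells given vehicle, oleic acid (a monounsaturated fatty acid), iron in the form of ferric ammonium citrate (FAC, which the series names as the inducer of ferroptosis, a cell death by iron-driven lipid peroxidation), or oleic acid and FAC together. The doses and times were not given in the sources used here, no group received ammonium citrate without iron, and HEK293 was the only line. The labels do not say whether the replicates were separate cultures, so the p-values reflect how far these libraries differ among themselves, which may be technical.

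Motifs that are known from promoters of respiratory genes were searched on both strands from 250 bases before to 50 bases after the RefSeq start sites (build GRCh38.p14), where 67 of 81 nuclear members other than readthroughs had an entry. The NRF1 motif, gcgca and gcgc with any base between them, was found in 16 of the 67 (23.9%, against 6.98% of all 27305 genes in the table). The ETS motif, ccggaag, was found in 21 (31.3% against 12.2%) and the YY1 motif, aagatggc, in 12 (17.9% against 3.52%). At least 1 of the motifs was found in 40 of the 67 (59.7%, against 5464 of the 27305 genes). Members with an entry numbered 32 in complex I, 3 in II, 7 in III, 11 in IV and 14 in V. Of these, the NRF1 motif was in 6 members of complex I, 2 of complex II, 4 of complex III, 0 of complex IV and 4 of complex V. The ETS motif was in 5, 2, 3, 5 and 6, and the YY1 motif in 7, 1, 1, 0 and 3. The following stretches of 120 bases lie before every exon that GENCODE 29 annotates there. They were chosen because they hold a motif and no annotated exon, and NDUFB4, NDUFA12, NDUFB7, UQCR11 and COX5B are named for that reason, not for their values. They are shown, 5′ to 3′ on the gene's strand with the motif in capitals, as examples of NRF1 motifs in complex I (NDUFB4 and NDUFA12), and of ETS motifs in complex I (NDUFB7), complex III (UQCR11, with 1 motif on each strand) and complex IV (COX5B). A match says only that these letters are present.
NDUFB4, chr3:120596189-120596308, plus strand: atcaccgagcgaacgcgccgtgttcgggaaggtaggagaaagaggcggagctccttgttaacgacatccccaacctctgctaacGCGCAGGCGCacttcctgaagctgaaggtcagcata
NDUFA12, chr12:95003771-95003890, minus strand: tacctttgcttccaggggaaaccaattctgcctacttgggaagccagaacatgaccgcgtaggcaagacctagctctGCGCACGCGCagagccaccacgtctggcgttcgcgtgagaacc
NDUFB7, chr19:14572067-14572186, minus strand: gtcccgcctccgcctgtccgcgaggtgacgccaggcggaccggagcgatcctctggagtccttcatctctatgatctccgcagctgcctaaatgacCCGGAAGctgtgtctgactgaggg
UQCR11, chr19:1605491-1605610, minus strand: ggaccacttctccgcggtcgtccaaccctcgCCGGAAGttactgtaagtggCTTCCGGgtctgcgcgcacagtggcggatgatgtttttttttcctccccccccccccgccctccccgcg
COX5B, chr2:97645920-97646039, plus strand: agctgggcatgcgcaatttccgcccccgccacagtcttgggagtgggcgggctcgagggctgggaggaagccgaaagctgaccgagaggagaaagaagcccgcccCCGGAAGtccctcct

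In vehicle-treated cells 12 of the 13 mitochondrially encoded subunits were above every nuclear member per unit of transcript length. MT-CO1, the catalytic subunit of cytochrome c oxidase, averaged 19562 ± 3854 per-length units in vehicle (counts divided by transcript length and scaled to the same sum in every library, mean ± SD, n = 3). MT-CO2 and MT-CO3, the other mitochondrial subunits of that enzyme, averaged 17820 ± 4765 and 17781 ± 3127, within the spread of MT-CO1. MT-ATP6, the proton channel subunit of ATP synthase, followed at 11340 ± 3083 and MT-ND4 of complex I at 6988 ± 1538. MT-ND6, the only one of the 13 encoded on the light strand, was the lowest at 61.4 ± 31.8. The RNA was poly-A selected, and whether this captured each mitochondrial RNA alike was not tested. Of the nuclear members in each complex, the highest per length in vehicle were ATP5F1B, the catalytic β subunit of ATP synthase (852 ± 44.9), COX6A1 of complex IV (832 ± 77.1), UQCRH, the hinge protein of complex III (652 ± 46.1), NDUFS5 of complex I (576 ± 34.3) and SDHA, the FAD-binding subunit of complex II (256 ± 18.6). ATP5F1B and COX6A1 did not differ beyond their spread. The lowest of each complex were NDUFC2-KCTD14 (9.70 ± 4.05), SDHC (64.2 ± 2.74), UQCRFS1 (56.1 ± 0.448), NDUFA4L2 (0.661 ± 0.389) and ATP5MF-PTCD1 (14.2 ± 1.45). Per-length values were not used for 7 members, NDUFA3, NDUFA6, NDUFA10, NDUFS1, NDUFS3, UQCRC2 and ATP5IF1, because under 90% of their counts fell on transcripts of known length.

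Where a subunit has tissue isoforms, HEK293 carried the widespread one. COX4I1, COX6A1, COX6B1, COX7A2, COX7B and COX8A averaged 221, 253, 164, 121, 133 and 118 CPM in vehicle (CPM being the count relative to the TMM-scaled library total), while COX4I2, COX6A2, COX7A1 and COX7B2 were at 0 counts in all 12 libraries. COX6B2 reached 6 counts at most, COX8C 1 and ATP5MGL 2, and UQCRHL, a copy of UQCRH, reached 13, so these 8 genes were not members. Where no count was seen, up to 3 counts are still possible, or 0.160 to 0.213 CPM depending on the library (counting error only). All 3 genes for the proton-carrying c subunit of ATP synthase were detected, ATP5MC1 at 108 ± 11.6, ATP5MC2 at 286 ± 13.6 and ATP5MC3 at 234 ± 27.3 CPM. They encode the same mature protein from different precursors, and many members have near-identical processed copies, so reads could be divided among copies by the authors' counting.

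Libraries held 14098216 to 18717397 counts. Of 9 markers of HEK293 all 9 were detected, the most abundant being VIM at 583 to 1427 CPM, whereas the mature kidney markers UMOD, AQP2 and SLC34A1 were at 0. The summed lists for endothelium, blood, hepatocyte and striated muscle reached at most 2.05 CPM in any library, and the fibroblast list, led by COL1A1, 9.71 to 18.3 CPM. The libraries of oleic acid 3 and oleic acid + FAC 3 stood apart. In them the deviation of a gene from its group mean correlated with log2 transcript length across genes at r = -0.49 and r = -0.36. Short transcripts were thus high, and most subunit transcripts are short. Other libraries had trends too: -0.20 in vehicle 1 and FAC 3, 0.22 in FAC 2, and 0.31 to 0.33 in oleic acid 1, oleic acid 2 and oleic acid + FAC 1. The rest lay between -0.015 and 0.15. Deviations within a group offset each other, so these values are not independent. The median length was 832 bases for nuclear members and 2804 for all genes tested. The medians over the nuclear and mitochondrial members are therefore given with and without these 2 libraries, and counts and single genes where stated.

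The summed level of the nuclear subunits was highest in the libraries of oleic acid 3 and oleic acid + FAC 3. The 83 nuclear members together came to 11302, 9821 and 9910 CPM in vehicle libraries 1 to 3, 9784, 10269 and 14565 in oleic acid, 11283, 10138 and 12678 in FAC, and 11838, 13073 and 16943 in oleic acid + FAC. All 3 oleic acid + FAC libraries lay above the 3 vehicle libraries, and every other pair of groups overlapped. Group means were 10345 ± 831 in vehicle, 11540 ± 2631 in oleic acid, 11366 ± 1272 in FAC and 13951 ± 2664 in oleic acid + FAC (SD, n = 3). Without the 2 libraries the means of oleic acid and of oleic acid + FAC were 10027 and 12455. Oleic acid 3 was above the other oleic acid libraries for 75 of 83 nuclear members, and oleic acid + FAC 3 above the other libraries of its group for 71. The same held for FAC 3 in its group for 72 and for vehicle 1 in its group for 74. Such an order was thus not particular to the 2 libraries. Oleic acid + FAC 3 was the highest of all 12 libraries for 64 of the 83, against 21.8% of all genes. These levels depended in part on the scaling. Scaled to the library total without TMM, the nuclear sum was 13677 CPM in oleic acid + FAC 3, below oleic acid 3 at 13827. The mean of oleic acid + FAC was then 12711 ± 840, against 10840 ± 833 in vehicle. Its libraries (12150 CPM or more) then also lay above those of FAC (12127 or less).

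Complex II is the only complex without a mitochondrial gene and had the longest nuclear transcripts (median 1775 bases). Its 4 genes summed to 701, 601 and 594 CPM in vehicle, 616, 603 and 649 in oleic acid, 679, 606 and 681 in FAC, and 712, 703 and 714 in oleic acid + FAC. The oleic acid + FAC libraries were the highest 3 of the 12, with vehicle 1 (701) close below them. Scaled to the library total without TMM, they averaged 656 ± 77.2 against 662 ± 61.1 in vehicle, so this order depended on the scaling. Complex IV had the shortest nuclear transcripts (median 620 bases). Its 13 nuclear genes summed to 1938, 1611 and 1610 CPM in vehicle, 1641, 1728 and 2766 in oleic acid, 1931, 1712 and 2214 in FAC, and 2054, 2391 and 3416 in oleic acid + FAC. Library 3 was the highest of its group in oleic acid, FAC and oleic acid + FAC, and every pair of groups overlapped except vehicle and oleic acid + FAC. The median coefficient of variation of a nuclear gene over the 12 libraries was 13.1% in complex II, 20.4% in III, 24.4% in I, 24.5% in V and 26.7% in IV, against 17.9% over all genes.

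**Figure D1:**
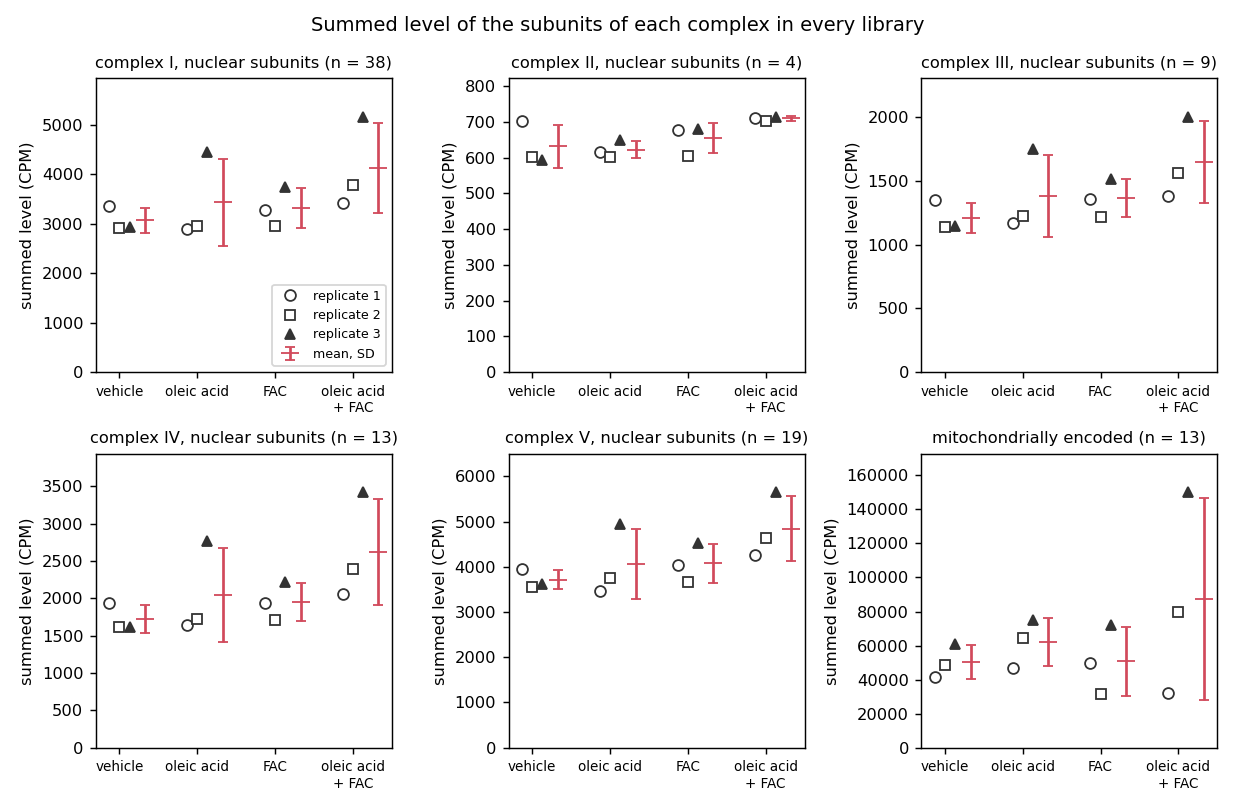
Summed level of the subunit genes of each complex (CPM, linear axis from 0) in the 12 libraries. Each symbol is 1 library, marked by replicate, and the red bar is the group mean ± SD (n = 3). Replicate 3 of oleic acid and of oleic acid + FAC lies above the rest of its group in every panel, least so for complex II, where the oleic acid + FAC libraries lie between 703 and 714. Scaled to the library total without TMM, replicate 3 was instead the lowest of its group for complex II, at 616 CPM in oleic acid and 577 in oleic acid + FAC.

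FAC against vehicle asks what the iron salt does on its own. No subunit passed the test: 0 of 96 had a Benjamini-Hochberg adjusted p under 0.05 over all 14209 genes in edgeR's quasi-likelihood fit, where 1.19% of all genes did. None had an unadjusted p under 0.05 either, against 1715 genes in all, and DESeq2 and limma-voom also called 0 members. The estimates leaned one way all the same. Of the nuclear members 73 of 83 (88.0%) had a positive log2 fold change against 51.0% of all genes, and their median was 0.14 against 0.0058. Leaving out the 2 libraries gave 73 of 83 and a median of 0.15. Neither library is in this comparison, so this could act only through the scaling and the spread shared by all groups. Without them 13 of 83 nuclear members had an unadjusted p under 0.05, against 2680 of 14209 genes, a lower share than over all genes, and the lowest adjusted p was 0.0838 (UQCRB). Removing each library's length trend brought the median to 0.081, leaving out FAC 3 to 0.051 and leaving out vehicle 1 to 0.22. By complex the nuclear medians were 0.11 in I, 0.020 in II, 0.15 in III, 0.16 in IV and 0.14 in V.

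Among complex I genes NDUFB3, an accessory subunit of the membrane arm, had the highest estimate. It measured 41.0, 33.5 and 36.7 CPM in vehicle and 41.2, 38.8 and 60.9 in FAC. FAC libraries 1 and 2 were at or below 41.2 and the third was well above vehicle, for an estimate of 0.34 on the log2 scale (SE 0.23, adjusted p = 0.661). The lowest estimate was that of NDUFC2-KCTD14 (-0.30, SE 0.38, adjusted p = 0.868), which lies under 6 CPM in every library. In complex II the estimates ran from -0.095 (SDHD, SE 0.19, adjusted p = 0.929) to 0.12 (SDHA, SE 0.14, adjusted p = 0.844). SDHD is a membrane anchor and SDHA carries the FAD.

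UQCRB, a small subunit near the ubiquinone site of complex III, measured 150, 144 and 134 CPM in vehicle and 162, 172 and 207 in FAC. The groups did not overlap, yet the log2 fold change of 0.34 (SE 0.23) had an adjusted p of 0.65. CYC1, the heme protein cytochrome c1, had the lowest estimate of complex III (-0.019, SE 0.14, adjusted p = 0.986). COX7C, a small subunit of complex IV, measured 230, 213 and 213 CPM in vehicle and 240, 240 and 316 in FAC, again without overlap (0.28, SE 0.26, adjusted p = 0.781). In complex V the ends were ATP5ME, the membrane subunit e (0.27, SE 0.29, adjusted p = 0.826), and ATP5MF-PTCD1 (-0.26, SE 0.22, adjusted p = 0.742). In all, 7 of 96 members lay higher in every FAC library than in every vehicle library, against 10.0% of all genes, so their share of 7.29% was below the background. Besides UQCRB, COX7C and COX6C they were NDUFA1, NDUFB1, NDUFS4 and ATP5F1A, which were picked out here after their values were seen. ATP5MF-PTCD1 was lower in every FAC library, as were 12.4% of all genes.

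The members that hold iron were grouped by textbook function, a grouping made with the values known. For the 7 with iron-sulfur clusters (NDUFS1, NDUFS7, NDUFS8, NDUFV1, NDUFV2, SDHB and UQCRFS1) the log2 fold changes of FAC against vehicle ran from 0.038 to 0.091 with a median of 0.076, all positive and 0 called. Of all nuclear members 88.0% were positive, with a higher median of 0.14, and 1.19% of all genes were called. For the 5 that bind heme (SDHC, SDHD, CYC1, MT-CYB and MT-CO1) the log2 fold changes ran from -0.27 to 0.083 with a median of -0.019, 2 positive and 0 called. In oleic acid + FAC against oleic acid the medians were 0.16 and 0.19, again with 0 called, against 2.21% of all genes, and 0.25 and 0.15 without the 2 libraries. Each was below the median over all nuclear members for that comparison and setting, given below.

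Oleic acid against vehicle asks for the effect of the fatty acid without iron. No member was called, and 0% of all genes were. An unadjusted p under 0.05 was found for 1 member and 118 genes in all, and DESeq2 and limma-voom called 0 members. The member was NDUFA4L2, described below, which passed the count minimum only through libraries where it was high. With all libraries 74 of 83 nuclear members had a positive estimate and the median was 0.20. Without the 2 libraries, of which only oleic acid 3 is in this comparison, 17 of 83 were positive and the median was -0.046. The mitochondrial median went from 0.31 to 0.081 in the same way. One member, NDUFB6 of complex I, lay higher in every oleic acid library than in every vehicle library, against 1.93% of all genes (48.6, 50.0 and 64.3 against 47.3, 46.1 and 43.2 CPM). It was singled out after its values were seen (0.25, SE 0.20, adjusted p = 1.00).

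NDUFA4L2, a low-level paralog of NDUFA4 that is known as a hypoxia-responsive gene, differed from the other members in its pattern. It measured 0.680, 0.232 and 0.275 CPM in vehicle, 0.993, 0.590 and 0.822 in oleic acid, 0.390, 0.369 and 0.298 in FAC, and 0.291, 0.397 and 0.355 in oleic acid + FAC. The oleic acid libraries were above both groups with FAC without overlap, and vehicle 1 lay among them. Its log2 fold change was 1.02 in oleic acid against vehicle (SE 0.46, adjusted p = 1.00) and -1.18 in oleic acid + FAC against oleic acid (SE 0.47, adjusted p = 0.238), and without the 2 libraries it was 0.99 and -1.17. These values rest on 4 to 17 counts per library. NDUFA4 itself measured 98.5, 82.4 and 90.8 CPM in vehicle and 88.5, 95.2 and 116 in oleic acid.

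Oleic acid + FAC against FAC asks what oleic acid adds to iron-treated cells. No member was called, and 0% of all genes were. An unadjusted p under 0.05 was found for 4 members, all of complex IV, against 576 genes in all, and DESeq2 and limma-voom called 0 members. With the replicate number as a block 43 members were under 0.05, against 1631 genes, with 0 called and a lowest adjusted p of 0.414. These were 15 nuclear members of complex I, 4 of III, 9 of IV and 11 of V, and 4 mitochondrial ones. COX4I1, the nuclear subunit that joins MT-CO1 early in assembly, measured 272, 217 and 273 CPM in FAC and 278, 322 and 446 in oleic acid + FAC. The groups did not overlap, and the log2 fold change was 0.46 (SE 0.21, adjusted p = 0.707). COX8A (0.47, SE 0.21), COX6C (0.52, SE 0.21) and NDUFA4 (0.33, SE 0.14) had the same adjusted p of 0.707. Without the 2 libraries the estimates of these 4 were 0.23, 0.28, 0.21 and 0.24. Over the nuclear members the median was 0.33 with 76 of 83 positive, and 0.13 with 77 of 83 positive without the 2 libraries. In all, 7 members were higher in every oleic acid + FAC library, a share of 7.29% against 4.61% of all genes. These were COX4I1, COX8A, NDUFA4, SDHC and, picked out after their values were seen, NDUFA3, NDUFA8 and NDUFB7. The margins were small for some: NDUFB7, whose promoter stretch is printed above, measured 83.6, 70.2 and 83.2 CPM in FAC and 87.7, 98.0 and 111 in oleic acid + FAC.

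Oleic acid + FAC against oleic acid asks what iron does to cells that hold the fatty acid. It shares its oleic acid + FAC libraries with the comparison before. No member was called, against 2.21% of all genes (314 genes, and 740 with the replicate number as a block, which called 0 members too). An unadjusted p under 0.05 was found for 3 members and 2285 genes in all, or with the block for 26 members and 3317 genes, and DESeq2 and limma-voom called 0 members. The nuclear median was 0.28 with 79 of 83 positive (95.2% against 50.4% of all genes). It was 0.56 without oleic acid 3 alone and 0.11 without oleic acid + FAC 3 alone. By complex it was 0.28 in I, 0.21 in II, 0.22 in III, 0.32 in IV and 0.30 in V.

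Members at the ends of the range of estimates in their complex follow. NDUFC1, a membrane arm subunit of complex I, measured 37.5, 35.8 and 68.1 CPM in oleic acid and 48.6, 55.6 and 91.0 in oleic acid + FAC (0.47, SE 0.27, adjusted p = 0.413). Libraries 1 and 2 of oleic acid were below all of oleic acid + FAC, and library 3 was above libraries 1 and 2 of oleic acid + FAC. SDHC, a membrane anchor of complex II, measured 128, 142 and 152 CPM in oleic acid and 158, 161 and 177 in oleic acid + FAC, without overlap (0.24, SE 0.11, adjusted p = 0.328), and SDHA had an estimate of 0.14 (SE 0.14). In complex III the estimates ran from 0.065 (UQCRFS1, the Rieske iron-sulfur protein, SE 0.12) to 0.42 (UQCRB, SE 0.23). In complex IV, NDUFA4L2 apart, COX7A2L, which is known for its part in joining complexes into supercomplexes, had 0.22 (SE 0.12) and COX6C 0.47 (SE 0.21, adjusted p = 0.297). In complex V ATP5MF-PTCD1 had -0.31 (SE 0.22) and ATP5PD, of the peripheral stalk, 0.48 (SE 0.23, adjusted p = 0.333). NDUFB5 and SDHC were the 2 members higher in every oleic acid + FAC library, 2.08% against 7.85% of all genes. NDUFA4L2 was the 1 member lower in every one, against 10.3% of all genes, and the count minimum admitted it through its high libraries. NDUFB5 was picked out with its values known and measured 44.4, 47.5 and 51.7 CPM in oleic acid and 54.1, 53.6 and 74.0 in oleic acid + FAC (0.34, SE 0.15, adjusted p = 0.295).

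Leaving out the 2 libraries separated these groups at the nuclear members. With 2 libraries a group, 75 of 83 nuclear members (and 0 of 13 mitochondrial ones) were higher in both oleic acid + FAC libraries than in both oleic acid libraries, against 26.9% of all genes. The median was 0.33, with 0.31 in I, 0.23 in II, 0.31 in III, 0.38 in IV and 0.35 in V, and 45 of 83 nuclear members had an unadjusted p under 0.05, against 2807 of 14209 genes. After adjustment 1 member was called, against 2.61% of all genes. This was NDUFA1, an accessory subunit of complex I encoded on the X chromosome, with 66.9 and 66.1 CPM in oleic acid and 93.7 and 103 in oleic acid + FAC (0.57, SE 0.14, adjusted p = 0.0443). With all libraries, where replicate 3 measured 112 in oleic acid and 131 in oleic acid + FAC, its adjusted p was 0.328. It was also called without oleic acid 3 alone (0.71, adjusted p = 0.0337). The separation in libraries 1 and 2 went with length: among the 74 nuclear members with a usable transcript length the median was 0.38 under 1000 bases, 0.27 from 1000 to 2000 bases and 0.22 from 2000 bases, and the part of length in it was not tested in these libraries.

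**Figure D2:**
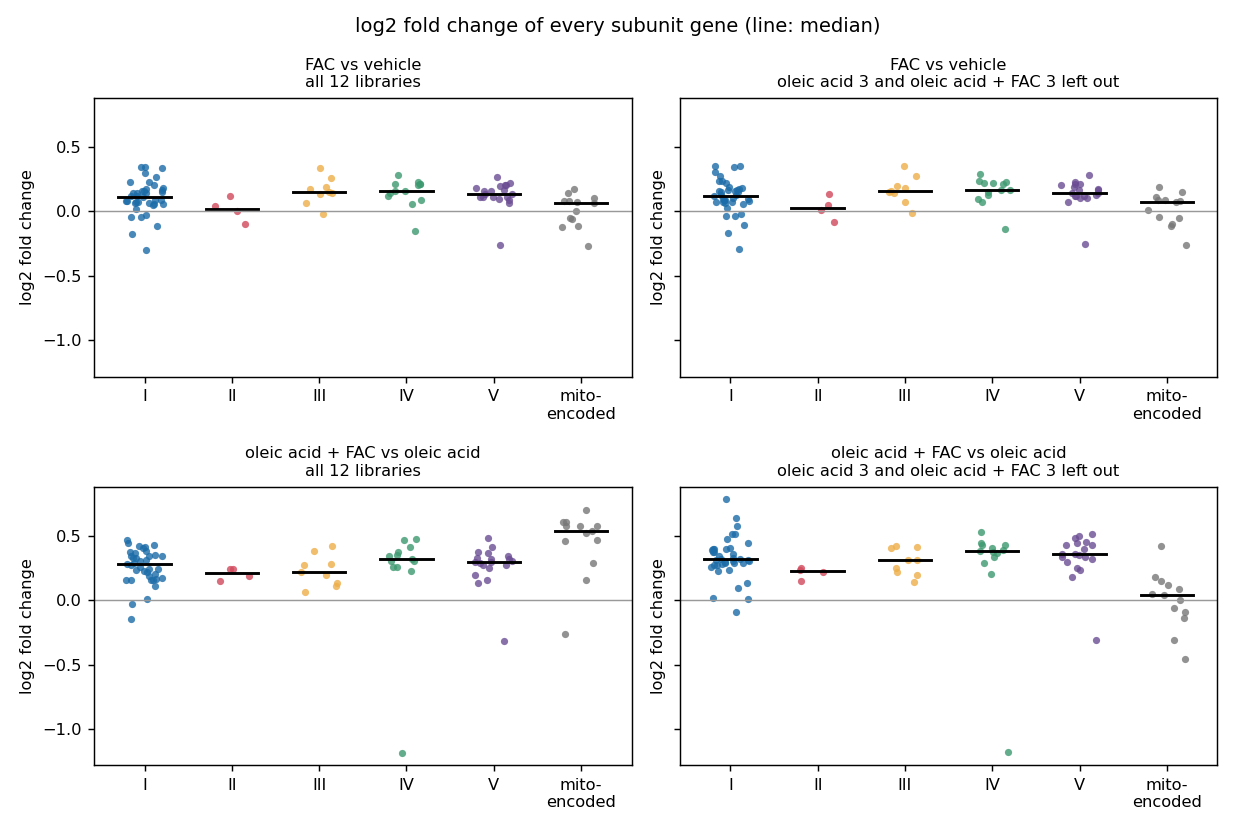
log2 fold change (vertical axis) of every subunit gene by complex, with mitochondrially encoded genes apart, for FAC against vehicle (top) and oleic acid + FAC against oleic acid (bottom), with all 12 libraries (left) and without oleic acid 3 and oleic acid + FAC 3 (right). Each point is 1 gene and the line is the median. In the bottom row the mitochondrial median goes from 0.54 to 0.040 while that of complex I goes from 0.28 to 0.31. The lowest point in complex IV there is NDUFA4L2. Neither library is in FAC against vehicle, so the top row could change only through the scaling and the shared spread.

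The interaction, which asks whether the FAC effect differs with and without oleic acid, gave 0 called members against 0% of all genes. None of the 96 had an unadjusted p under 0.05, against 116 genes in all, and every adjusted p was 1.00. DESeq2 and limma-voom called 0 members. The median over nuclear members was 0.16 and over mitochondrial members 0.50, or 0.20 and 0.0015 without the 2 libraries.

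Within the nuclear members the estimates were higher for shorter transcripts with all libraries, in oleic acid against vehicle through oleic acid 3. The 44 members under 1000 bases had a median of 0.16 in FAC against vehicle, with 43 positive. The 24 from 1000 to 2000 bases had 0.090 and the 6 from 2000 bases 0.094, with 19 and 5 positive. In library oleic acid + FAC 3 the median deviation from the vehicle mean was 0.97 on the log2 scale for the shortest class, 0.60 for the middle one and 0.26 for the longest, and in oleic acid 3 it was 0.71, 0.41 and 0.19. The Spearman correlation of log2 fold change with length across the 74 members, which are not independent replicates and share their libraries, was -0.44 in FAC against vehicle, -0.63 in oleic acid against vehicle, -0.65 in oleic acid + FAC against FAC and -0.51 in oleic acid + FAC against oleic acid. Over all 14039 genes with a length it was -0.0077, -0.46, -0.55 and -0.23. Without the 2 libraries the members' correlations were -0.44, -0.021, -0.51 and -0.65, and those over all genes -0.0061, 0.25, -0.34 and -0.30. The first of each holds neither of the 2 libraries, so it could hardly change. In oleic acid against vehicle the medians of the 3 length classes were then -0.045, -0.039 and -0.087, from the shortest to the longest. With the length trend of each library removed, the nuclear medians of the 4 comparisons were 0.081, 0.047, 0.12 and 0.14.

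**Figure D3:**
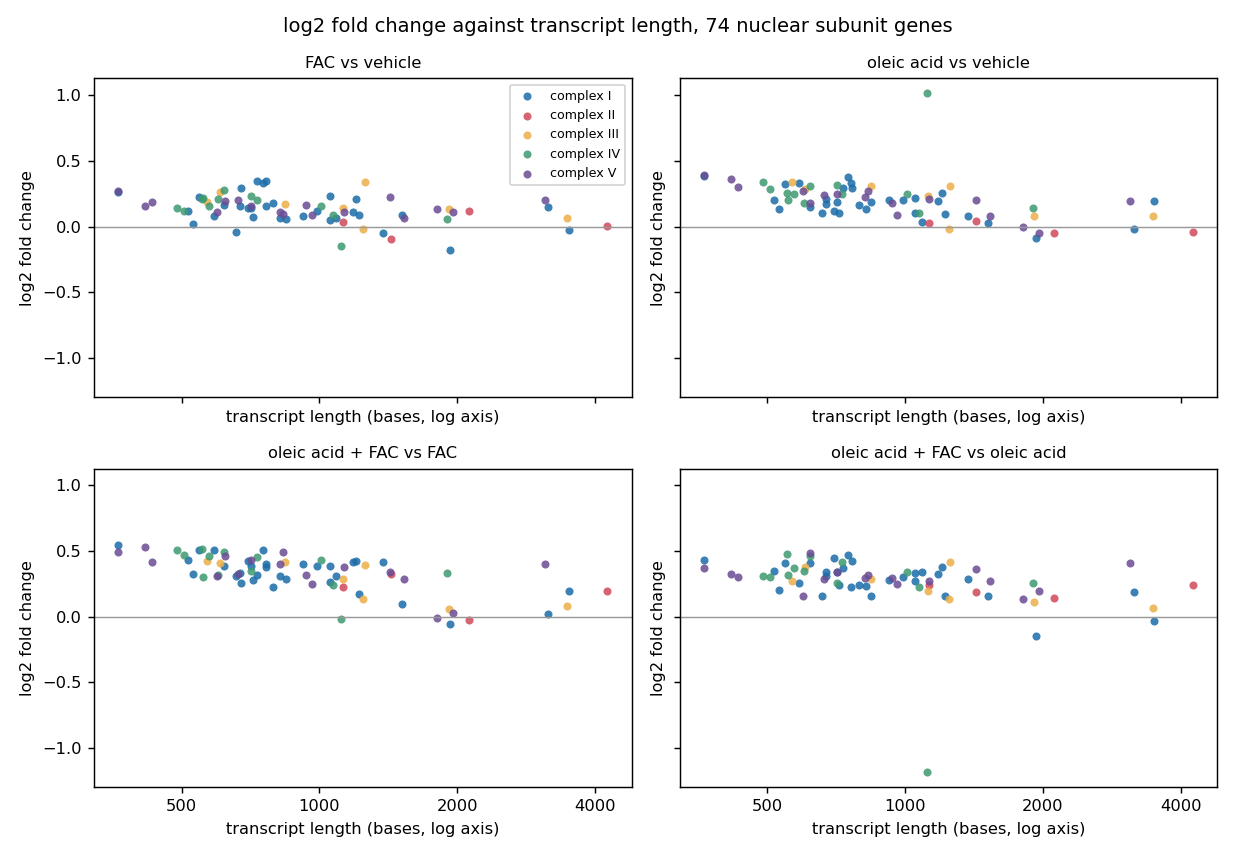
log2 fold change (vertical axis) against transcript length in bases (log axis) for the 74 nuclear subunit genes with a usable length, 1 panel per comparison, coloured by complex. Short genes lie higher in all 4 panels (Spearman -0.44 to -0.65), but without oleic acid 3 and oleic acid + FAC 3 the value for oleic acid against vehicle is -0.021, and no gene of complex II is shorter than 1000 bases.

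The mitochondrially encoded members varied widely within groups. Together they summed to 41416, 48743 and 60914 CPM in vehicle, 46777, 64424 and 74722 in oleic acid, 49522, 31360 and 71803 in FAC, and 32400, 79621 and 149929 in oleic acid + FAC. The lowest library was FAC 2 and the highest oleic acid + FAC 3, while oleic acid + FAC 1 was the second lowest. Their share of all counts ranged from 3.33% to 12.1%, with group means of 5.28% ± 1.00 in vehicle, 6.26% ± 1.08 in oleic acid, 5.10% ± 1.75 in FAC and 7.64% ± 4.39 in oleic acid + FAC (SD, n = 3). All 4 groups overlapped. Relative to the nuclear subunits the mitochondrial sum was 2.74 times as high in oleic acid + FAC 1 and 8.85 times as high in oleic acid + FAC 3, which are replicates of 1 group. In RNA from bulk cultures, fewer cells and less RNA per cell cannot be told apart.

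Each of the 13 genes spanned a wide range over the 12 libraries. The ratio of the highest to the lowest library ran from 3.22 for MT-ND6 to 5.37 for MT-ND1, and 12 of the 13 were highest in oleic acid + FAC 3. The exception was MT-ND6, which was highest in vehicle 3 and lowest in vehicle 1. It reached 24.5 CPM at most, and its capture by poly-A selection was not tested. MT-ND1, a core subunit of the membrane arm of complex I, measured 1895, 1966 and 2629 CPM in vehicle, 2155, 2541 and 3363 in oleic acid, 2103, 1221 and 2953 in FAC, and 1352, 3146 and 6552 in oleic acid + FAC. In vehicle, oleic acid and oleic acid + FAC library 1 was lowest and library 3 highest, and in FAC library 2 was lowest. MT-CYB, the cytochrome b of complex III, measured 2253, 2852 and 3115 CPM in vehicle and 2313, 1494 and 3003 in FAC, the lowest estimate of the 13 in that comparison (-0.27, SE 0.42, adjusted p = 0.898). MT-CO1 took 30.9% to 35.5% of the mitochondrial sum in every library.

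No mitochondrial gene was called in any comparison, and their standard errors were large. Those of the pairwise comparisons ran from 0.37 to 0.48 on the log2 scale. In FAC against vehicle the estimates ran from -0.27 to 0.18 (MT-ND6) and in oleic acid against vehicle from 0.17 (MT-ATP8) to 0.40 (MT-CYB). The median in FAC against vehicle was 0.0625, or 0.0708 without the 2 libraries, neither of which is in that comparison. In oleic acid + FAC against FAC 12 of 13 were positive with a median of 0.80, and the exception was MT-ND6 (-0.23, SE 0.37, adjusted p = 0.826). Without the 2 libraries the median was 0.12. In oleic acid + FAC against oleic acid the median of 0.54 became 0.040, with 7 of 13 positive, and MT-ND3 had the highest estimate with all libraries (0.70, SE 0.41, adjusted p = 0.433). MT-CO2 and MT-CO3, with MT-CO1 in complex IV, had 0.61 and 0.29 there, MT-ATP6 0.54, MT-ND2 0.57, MT-ND4 0.60, MT-ND4L 0.57 and MT-ND5 0.58, each with an SE above 0.4. The other estimates were 0.52 for MT-CO1, 0.46 for MT-ND1, 0.46 for MT-ATP8, 0.16 for MT-CYB and -0.26 for MT-ND6, the only negative one.

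**Figure D4:**
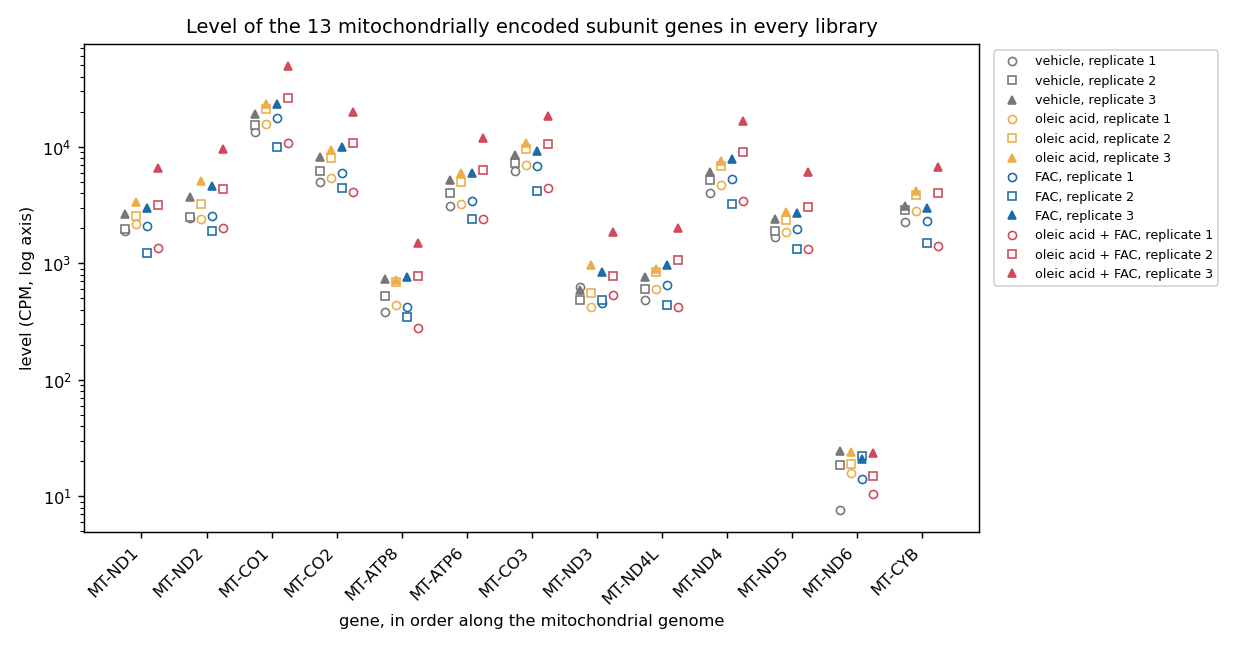
Level of the 13 mitochondrially encoded subunit genes (CPM, log axis) in the order of the mitochondrial map, 1 point per library, coloured by group and marked by replicate. In 12 of 13 genes the highest point is oleic acid + FAC 3, and MT-ND6, the lowest gene, reaches 24.5 CPM at most (vehicle 3).

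Some of these genes overlap on the mitochondrial genome, so that reads in the shared stretch cannot be assigned to 1 gene. MT-ATP8 (chromosome M, 8366 to 8572, GRCh38) shares 46 bases, 22.2% of its length, with MT-ATP6 (8527 to 9207). MT-ND4L (10470 to 10766) shares 7 bases with MT-ND4 (10760 to 12137). The first stretch, read in different frames for the 2 proteins, is shown because both genes' values rest on it.
MT-ATP8 and MT-ATP6: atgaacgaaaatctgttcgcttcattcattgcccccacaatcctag
MT-ATP8 measured 384, 526 and 730 CPM in vehicle and MT-ATP6 3079, 3968 and 5162, and in both the order of the vehicle libraries was the same. Because the 2 genes share a stretch, this is not agreement between 2 separate measurements. Copies of mitochondrial DNA in the nuclear genome can also take part of these reads, and whether counting used the strand was not given in the sources used here.

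At the level of transcripts, 372 transcripts of 95 member genes were tested and 0 were called in any comparison. In FAC against vehicle 0.00777% of 51464 transcripts were called, and in oleic acid + FAC against oleic acid 0.0117%. Member transcripts with an unadjusted p under 0.05 numbered 7 and 6. The main transcript of ATP5F1D, the δ subunit of the ATP synthase stalk, took 40.2% of its gene's counts in vehicle, 69.5% in oleic acid, 50.5% in FAC and 63.5% in oleic acid + FAC. It measured 22.6, 19.6 and 48.2 CPM in vehicle and 50.3, 48.6 and 90.5 in oleic acid (1.07, SE 0.39, adjusted p = 1.00). It was picked out after its values were seen, and such shares rest on how kallisto divided reads among transcripts.

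Other genes of the pathway were taken from lists of assembly factors, mobile carriers, mitochondrial RNA factors, regulators, proteases and mitochondrial ribosomal proteins, 202 of which were tested. In FAC against vehicle 1 of the 202 passed the test, a smaller share than the 1.19% over all genes. SDHAF4, an assembly factor for the FAD-bearing SDHA, measured 3.27, 4.11 and 2.48 CPM in vehicle and 5.98, 7.90 and 6.92 in FAC, and rose by 1.08 on the log2 scale (SE 0.23, adjusted p = 0.0404). It measured 3.74, 4.46 and 5.83 in oleic acid and 7.04, 6.81 and 7.74 in oleic acid + FAC. Its call held in 14 of 23 alternatives, with adjusted p from 0.00118 to 0.188. In oleic acid + FAC against oleic acid 1 of the 202 passed, again a smaller share than the 2.21% over all genes. FASTKD3, of a family that acts on mitochondrial RNA, measured 28.2, 23.0 and 24.4 CPM in oleic acid and 16.7, 16.1 and 17.7 in oleic acid + FAC, and fell by 0.58 on the log2 scale (SE 0.12, adjusted p = 0.0262). Its call held in 18 of 23 alternatives, with adjusted p from 0.0014 to 0.194.

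The counts of positive estimates in the assembly factors and the mitochondrial ribosome are given beside those of the subunits, with no test of the difference. Of 78 mitochondrial ribosomal protein genes, 31 had a positive estimate in FAC against vehicle (median -0.033) and 52 in oleic acid + FAC against oleic acid (median 0.058), and 72 in oleic acid against vehicle (median 0.13) or 9 without the 2 libraries. Their median transcript length was 1159 bases. Of the 18 assembly factors of complex I, 9 were positive in FAC against vehicle with a median of 0.0030, and of the 22 of complex IV 13 were, with a median of 0.031. Of the 6 assembly factors of complex III, 1 was positive, with a median of -0.27. Among them is UQCC1, which was picked out with its values known. It measured 48.7, 46.3 and 47.5 CPM in vehicle and 32.1, 36.3 and 39.3 in FAC (-0.40, SE 0.11, adjusted p = 0.109), and it was called in 5 of 23 alternatives, with adjusted p from 0.0162 to 0.337.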

How the data were processed

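The authors deposited kallisto estimated counts per gene and per transcript for 12 libraries, 3 in each of 4 groups; per the submitters' processing notes, bcl2fastq 2.19, kallisto 0.46.1, sleuth 0.30.0 and GRCh38.p12 were used, and per the labels' protocols RNA was poly-A selected. The estimated counts were rounded to whole numbers here. Genes kept by filterByExpr (14209) entered 1 edgeR 4.0.16 quasi-likelihood fit (R 4.3.3) with TMM scaling, and Benjamini-Hochberg adjustment ran over all of them; DESeq2 1.42.0 and limma 3.58.1 (voom) were alternatives. Levels are TMM-scaled CPM; per-length levels use annotated GENCODE 29 transcript lengths weighted by count. The length trend was removed with a loess fit per library (span 0.5, prior count 1). The members and lists were chosen with earlier results of these data known. Named were all mitochondrial members, and per complex the highest and lowest fold change in FAC against vehicle and in oleic acid + FAC against oleic acid (mean log2 CPM of at least 1), the most and least abundant per length, and isoform families; other genes are said to be chosen after their values were seen. Pathway genes were named where called. Some items that these rules name are not reported here. The scripts were tested on simulated data. Library totals ran from 14098216 to 18717397 counts.

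Replicate numbers in the labels have no stated source. Deviations of same-numbered libraries correlated at 0.19 to 0.31 between oleic acid + FAC and FAC and at 0.26 to 0.58 between oleic acid + FAC and oleic acid. On the data alone the numbers may thus pair these libraries. In oleic acid and oleic acid + FAC the length trends also had the same sign at each number (0.33 and 0.31, 0.33 and 0.15, -0.49 and -0.36). The part of length in these correlations was not tested. The reported estimates come from the fit without the block, and counts with the replicate number as a block are given beside them where they differ. Between FAC or oleic acid and vehicle not every pair was over 0.1, and the block is given only in the closing section.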

Additional observations from a re-analysis of the deposited data

How the results depend on the processing

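Of 438 combinations of a group result and an alternative setting, 423 kept their side of the threshold or stayed within the replicate spread and 15 moved. Among oleic acid + FAC against oleic acid, the count of members called went from 0 to 1 without the 2 libraries that stood apart (NDUFA1), to 1 without oleic acid replicate 3 (NDUFA1), to 1 with the replicate block after removal of the length trend (UQCRB, 0.34, SE 0.10, adjusted p = 0.0422), and to 2 with the replicate block without the 2 libraries (NDUFA1 and NDUFB1), an alternative chosen after seeing the data; the cause was not tested. In oleic acid against vehicle the nuclear median of 0.20 became -0.0461 without the 2 libraries, -0.0418 without oleic acid replicate 3 and -0.0223 with the replicate block without the 2 libraries. The replicate block alone gave nuclear medians of 0.12, 0.15, 0.33 and 0.29 in the 4 comparisons in the order of the report, mitochondrial medians of -0.0129, 0.30, 0.66 and 0.37, and 0 called members in each.

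Scaled to the nuclear total, the summed level in vehicle was 11439 CPM over nuclear members, 3393 in complex I, 699 in II, 1341 in III and 4104 in V, and complex II was 676 in oleic acid and 700.4 in FAC; by construction mitochondrial counts leave the total here and TMM is not applied. Without TMM, complex II in oleic acid + FAC was 656. Leaving out 1 library at a time gave nuclear medians from 0.0512 to 0.2233 in FAC against vehicle, -0.0418 to 0.3201 in oleic acid against vehicle, 0.145 to 0.4694 in oleic acid + FAC against FAC and 0.1081 to 0.5567 in oleic acid + FAC against oleic acid. The mitochondrial medians ran from -0.3129 to 0.2226, 0.085 to 0.4674, 0.132 to 1.1729 and -0.1203 to 0.9415, and members called from 0 to 1 in the last comparison and 0 in the others.

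Calls over all genes in FAC against vehicle went from 169 to 431 with the replicate block, 676 without the 2 libraries, 302 without oleic acid 3, 394 with the length trend removed, 1046 with that and the block, and 1043 with the block without the 2 libraries. In oleic acid + FAC against oleic acid they went from 314 to 740, 371, 457, 671, 1886 and 703. Between FAC and vehicle 4 of 6 libraries correlated best with their own replicate number, and between oleic acid and vehicle 2 of 6, so the block there rests on numbers alone. For oleic acid + FAC with FAC, and with oleic acid, 6 of 6 did. Depth limits NDUFA4L2, whose lowest library holds 4 counts.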
